A study of Mus musculus with 7 samples.

Results

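The proteasome subunit genes were examined in thymocytes at the αβ and γδ lineage branch point. Members were all features of the count tables whose symbol is Psm followed by a letter from a to g and a number, and 49 of 32286 features matched. They comprised the 7 alpha and 4 non-catalytic beta subunits of the 20S core, its 3 constitutive catalytic subunits (Psmb5, Psmb6 and Psmb7), the 3 immunoproteasome catalytic subunits (Psmb8, Psmb9 and Psmb10), 2 tissue-specific core subunits, 17 subunits of the 19S cap, 3 cap assembly chaperones, 5 activators, 1 inhibitor and 4 core assembly chaperones. The first 3 of these groups and the 19S cap make up the 31 constitutive subunits referred to below. Of the 49 members, 46 had a mean of at least 10 CPM (UMI counts scaled to a total of 1000000) over the 7 libraries, and Psma8, Psmb11 and Psme2b did not.

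The proteasome is the barrel-shaped protease that degrades ubiquitin-tagged proteins in every cell. A 19S cap recognises and unfolds the substrate, and the 20S core cuts it with 3 kinds of catalytic beta subunit. In lymphocytes, and in other cells after exposure to interferon, the catalytic subunits Psmb8, Psmb9 and Psmb10 can take the places of Psmb5, Psmb6 and Psmb7, and the resulting immunoproteasome cuts peptides in a way that favours their display on MHC class I. Thymocytes that pass the first TCR checkpoint enter a burst of growth and division.

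Single thymocytes had been sequenced with the 10x Genomics 3′ chemistry in 7 libraries, 1 for each sorted population of C57BL/6 thymocytes. From WT mice (6 to 8 weeks old in the study's text), whose thymocytes were depleted of CD4+ and CD8+ cells with beads, these were DN3a cells, which have not yet passed the first TCR checkpoint, and DN3b and DN4 cells without a surface γδ TCR (DN3b γδ− and DN4 γδ−, gated by the growth marker CD71) or with it (DN3b γδ+ and DN4 γδ+). From Lat-/-TCRd-H2BEGFP mice, which lack the adaptor that relays TCR signals and carry a fluorescent reporter of the TCR delta locus, these were DN3 γδ− and DN3 γδint cells. Each library was made from pooled thymi and received a spike of 500 splenic B lymphocytes, and the Lat-/- mutation and the reporter came together, so the effects of each cannot be told apart.

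Values are counts of unique molecular identifiers (UMIs) summed over the 71081 thymocyte barcodes, that is barcodes that passed the quality filter and held at most 1 UMI of Cd79a, Cd79b and Ms4a1 together, and are given as CPM of all UMIs of those barcodes. The 7 libraries held 5274 to 18515 such barcodes, with 37820685 to 338698944 UMIs and a median of 5737.5 to 18506 UMIs per barcode. In lists of 7 values the libraries always stand in the order WT DN3a, WT DN3b γδ−, WT DN4 γδ−, WT DN3b γδ+, WT DN4 γδ+, Lat-/- DN3 γδ− and Lat-/- DN3 γδint. With 1 library per population no test was possible, and the 95% intervals cover counting error only, not the spread between mice or sorts. A 3′ UMI count tallies each captured molecule once and does not by design grow with transcript length. Capture differs between genes, so levels were compared between libraries, and catalytic genes are set side by side only as UMIs captured. Ratios of the Lat-/- DN3 γδint library did differ with transcript length, as given below. The Lat transcript stood at 357 to 648 CPM in the WT libraries and at 4.83 and 0.899 CPM in the Lat-/- libraries, Il2ra at 620.0 CPM in WT DN3a, and Trdc at 1016 and 1844 CPM in the γδ+ libraries against 201 to 311 CPM in the other WT libraries. In Lat-/- DN3 γδ− and DN3 γδint Trdc stood at 24.0 and 36.3 CPM, and the reporter allele, counted as a feature of its own, at 30.5 and 44.2 CPM there and at most 0.043 CPM in the WT libraries, so the γδint library lay below every WT library also with both added (80.5 CPM). Between 18 and 93 barcode sequences were shared by any pair of libraries, at most 0.713% of a library.

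The promoters of the subunit pairs, except that of Psmb7, are shown with that of Psme1 because the results turn on the contrast between the immunoproteasome genes and their constitutive partners. RefSeq gave a start site for 41 of the 49 members, and the windows run from 250 bases before to 50 after it on build GRCm38.p6, 5′ to 3′ on the strand of the gene. Capitals mark matches to any of 5 letter patterns searched on both strands, namely GAAANNGAA (interferon-response-like), TTCNNNGAA (GAS-like), TGANTCAGC (antioxidant-response-like), CCAAT and the E-box CACGTG.
Psmb8 (chr17:34197945-34198244, plus strand): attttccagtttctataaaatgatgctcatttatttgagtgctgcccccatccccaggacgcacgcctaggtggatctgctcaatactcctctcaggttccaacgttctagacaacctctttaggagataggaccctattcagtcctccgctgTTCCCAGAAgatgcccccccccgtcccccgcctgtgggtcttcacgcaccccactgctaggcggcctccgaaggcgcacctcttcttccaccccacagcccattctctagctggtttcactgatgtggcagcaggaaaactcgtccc
Psmb9 (chr17:34187281-34187580, minus strand): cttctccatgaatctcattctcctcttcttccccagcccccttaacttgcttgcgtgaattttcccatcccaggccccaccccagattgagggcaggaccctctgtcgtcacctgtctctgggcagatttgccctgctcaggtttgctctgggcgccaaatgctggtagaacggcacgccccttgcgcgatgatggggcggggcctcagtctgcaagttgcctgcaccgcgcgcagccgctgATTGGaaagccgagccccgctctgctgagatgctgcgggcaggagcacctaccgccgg
Psmb10 (chr8:105938343-105938642, minus strand): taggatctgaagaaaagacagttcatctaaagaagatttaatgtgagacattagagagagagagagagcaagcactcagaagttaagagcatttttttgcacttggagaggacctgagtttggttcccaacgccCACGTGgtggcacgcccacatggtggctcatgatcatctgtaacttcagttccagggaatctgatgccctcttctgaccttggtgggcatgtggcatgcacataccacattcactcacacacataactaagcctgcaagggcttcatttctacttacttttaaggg
Psmb5 (chr14:54617946-54618245, minus strand): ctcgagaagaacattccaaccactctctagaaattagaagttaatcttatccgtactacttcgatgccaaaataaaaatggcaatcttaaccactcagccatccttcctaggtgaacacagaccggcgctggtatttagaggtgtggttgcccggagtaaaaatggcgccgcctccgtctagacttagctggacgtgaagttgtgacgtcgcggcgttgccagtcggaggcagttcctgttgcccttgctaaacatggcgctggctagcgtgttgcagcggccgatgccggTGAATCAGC
Psmb6 (chr11:70525107-70525406, plus strand): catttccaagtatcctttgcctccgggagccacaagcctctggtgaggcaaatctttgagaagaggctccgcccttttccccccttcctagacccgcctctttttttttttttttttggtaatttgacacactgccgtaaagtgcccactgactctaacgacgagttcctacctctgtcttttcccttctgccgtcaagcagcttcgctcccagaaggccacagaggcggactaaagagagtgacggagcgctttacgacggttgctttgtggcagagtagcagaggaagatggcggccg
Psme1 (chr14:55578244-55578543, plus strand): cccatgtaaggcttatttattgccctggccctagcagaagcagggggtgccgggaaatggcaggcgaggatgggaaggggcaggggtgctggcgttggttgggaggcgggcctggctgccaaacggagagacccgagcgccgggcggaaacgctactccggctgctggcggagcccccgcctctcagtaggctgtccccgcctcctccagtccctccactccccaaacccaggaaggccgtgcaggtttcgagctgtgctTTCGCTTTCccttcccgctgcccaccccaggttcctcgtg
The GAS-like pattern stood in the Psmb8 window and in 8.30% of the 32851 promoters of the table, and among members also in those of Psmd2 and Psmg1. The interferon-response-like pattern matched none of the 3 immunoproteasome windows. It matched 7 of 41 member windows (17.1%), against 8.56% of all promoters. These were the windows of Psmb3, Psmb4, Psmc2, Psmd4, Psmd9, Psme1 and Psmg4, of which the first 4 are constitutive subunits. The antioxidant-response-like pattern, found in 1.19% of all promoters, matched Psmb5 alone among the members. CCAAT, in either direction, was in 14 of 41 member windows (34.1%) and in 37.4% of all promoters. The E-box was in 4 of 41 member windows (9.76%), Psmb10 among them, and in 7.15% of all promoters. These matches describe the letters in the windows and no more. Psmb8 and Psmb9 lie on chromosome 17 with the peptide transporter genes Tap1 and Tap2 between and beside them. In the GENCODE annotation Psmb9 and Tap1, on opposite strands, overlap at their starts, which are 211 bases apart. The GENCODE starts of Psmb8 (34197721), Psmb9 (34187764) and Psme1 (55578123) lie outside the RefSeq windows above. The matches thus hold for the RefSeq start sites only. Psmb5 and the thymic epithelial subunit Psmb11 are neighbours on chromosome 14, with 3410 bases between them.

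Constitutive and immunoproteasome transcripts stood on opposite sides of their WT DN3a level in the other WT libraries. Summed over the 31 constitutive subunits the level was 5098, 7663, 7901, 8515, 5909, 5738 and 8764 CPM. It was lowest in WT DN3a, higher in WT DN3b and in WT DN4 γδ−, and nearer to WT DN3a in WT DN4 γδ+ and in Lat-/- DN3 γδ−. Psmb8, Psmb9 and Psmb10 together stood at 1278, 968, 933, 971, 1063, 1409 and 2180.3 CPM, so the immunoproteasome genes were lower than in WT DN3a in each of the 4 other WT libraries and higher in both Lat-/- libraries, though in Lat-/- DN3 γδ− the direction flips with TMM scaling (log2 ratio 0.14 as CPM, -0.07 with TMM). As a share of all UMIs the 49 members took from 0.75% in WT DN3a to 1.22% in Lat-/- DN3 γδint.

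**Figure D1:**
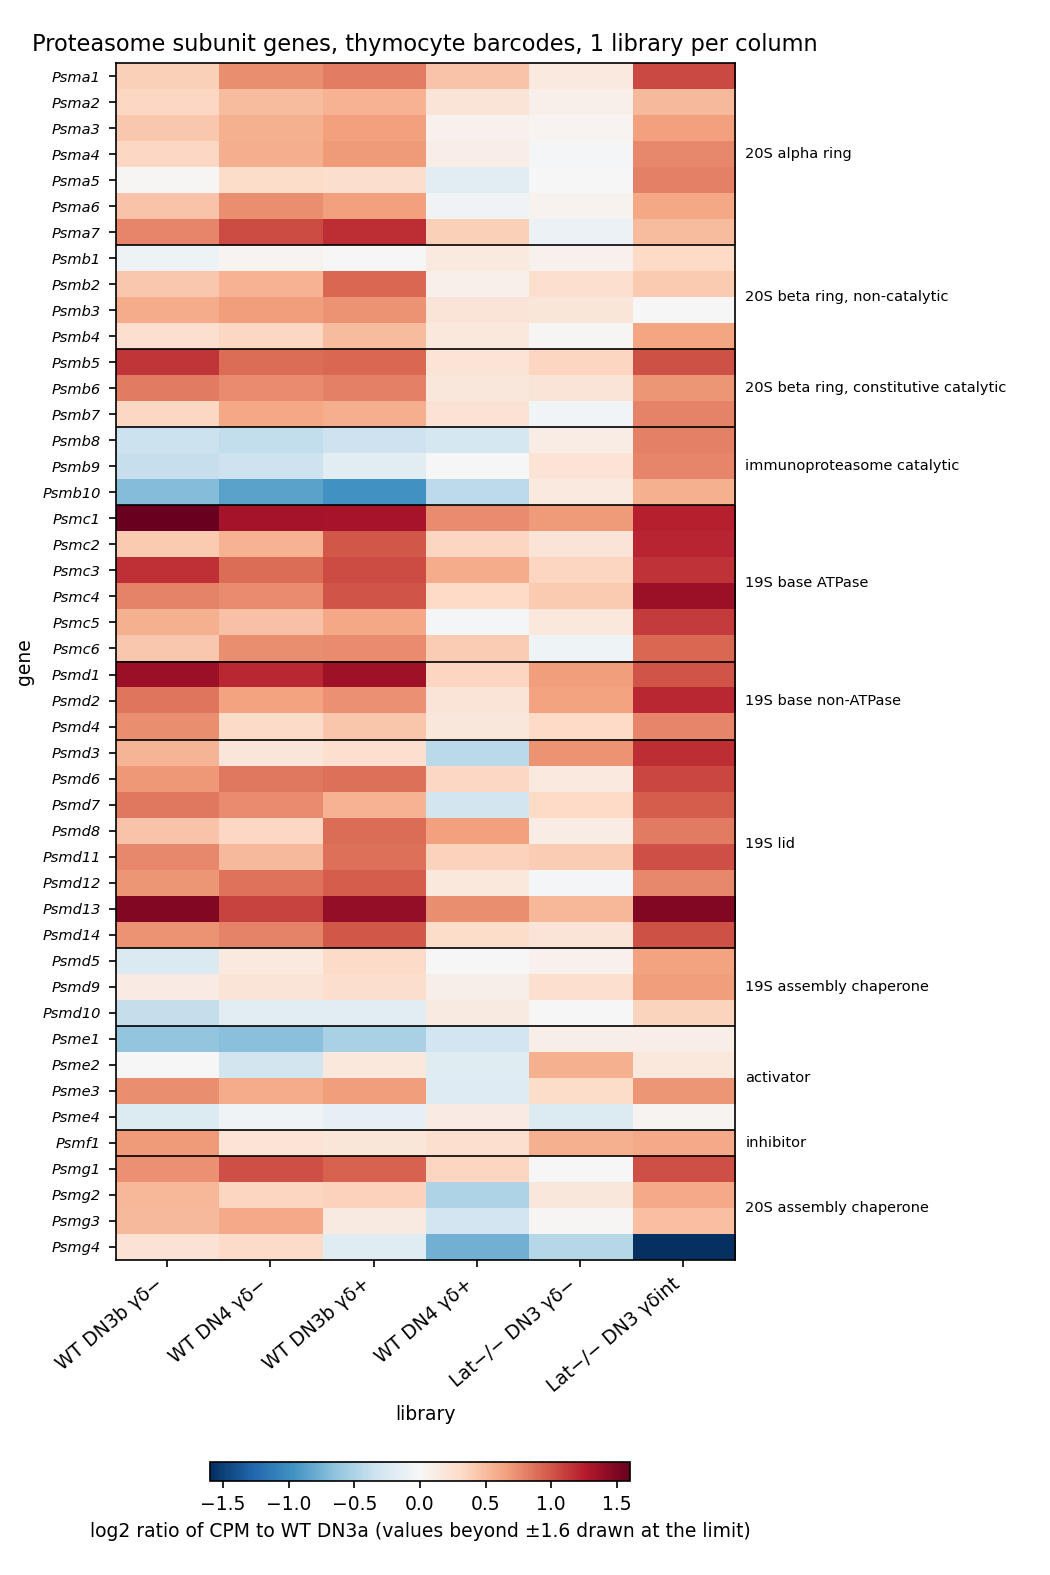
Colour gives the log2 ratio of CPM to WT DN3a for the 46 members with a mean of at least 10 CPM (rows, grouped by role) in the 6 other libraries (columns, 1 library each). Red rows of core and cap subunits contrast with the blue rows of Psmb8, Psmb9, Psmb10 and Psme1 in the WT columns, and Psmg4 in Lat-/- DN3 γδint is the lowest value at -1.87.

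The constitutive catalytic subunits carry the chymotrypsin-like (Psmb5), caspase-like (Psmb6) and trypsin-like (Psmb7) activities of the core. Psmb5 stood at 198, 437, 367, 375, 231, 252 and 400.4 CPM. Psmb6 followed a like order at 211, 375, 357, 371, 239, 245 and 344 CPM. Psmb7 stood at 119, 149.8, 183, 177, 139.6, 116 and 206 CPM. As CPM all 3 were highest, relative to WT DN3a, in WT DN3b, WT DN4 γδ− and Lat-/- DN3 γδint, and of the 3 the span was widest for Psmb5.

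Among the immunoproteasome subunits, Psmb8, which replaces Psmb5, stood at 894, 704, 679, 711, 735, 974 and 1569.9 CPM. Psmb9, which replaces Psmb6, stood at 171, 132, 136, 152, 170.0, 198 and 294 CPM. Psmb10, which replaces Psmb7, stood at 213, 132, 118, 109, 159, 237 and 317 CPM. Relative to WT DN3a, Psmb10 was furthest down in 3 libraries among the 46 members with a mean of at least 10 CPM. Its log2 ratios and 95% counting intervals were -0.69 (-0.72 to -0.66) for WT DN3b γδ−, -0.85 (-0.88 to -0.82) for WT DN4 γδ− and -0.97 (-1.003 to -0.94) for WT DN3b γδ+. Psmb8 differed less, at -0.34, -0.40 and -0.33 in the same libraries and -0.28 in WT DN4 γδ+, where Psmb9 was at -0.01 with an interval of -0.05 to 0.03 that holds 0.

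**Figure D2:**
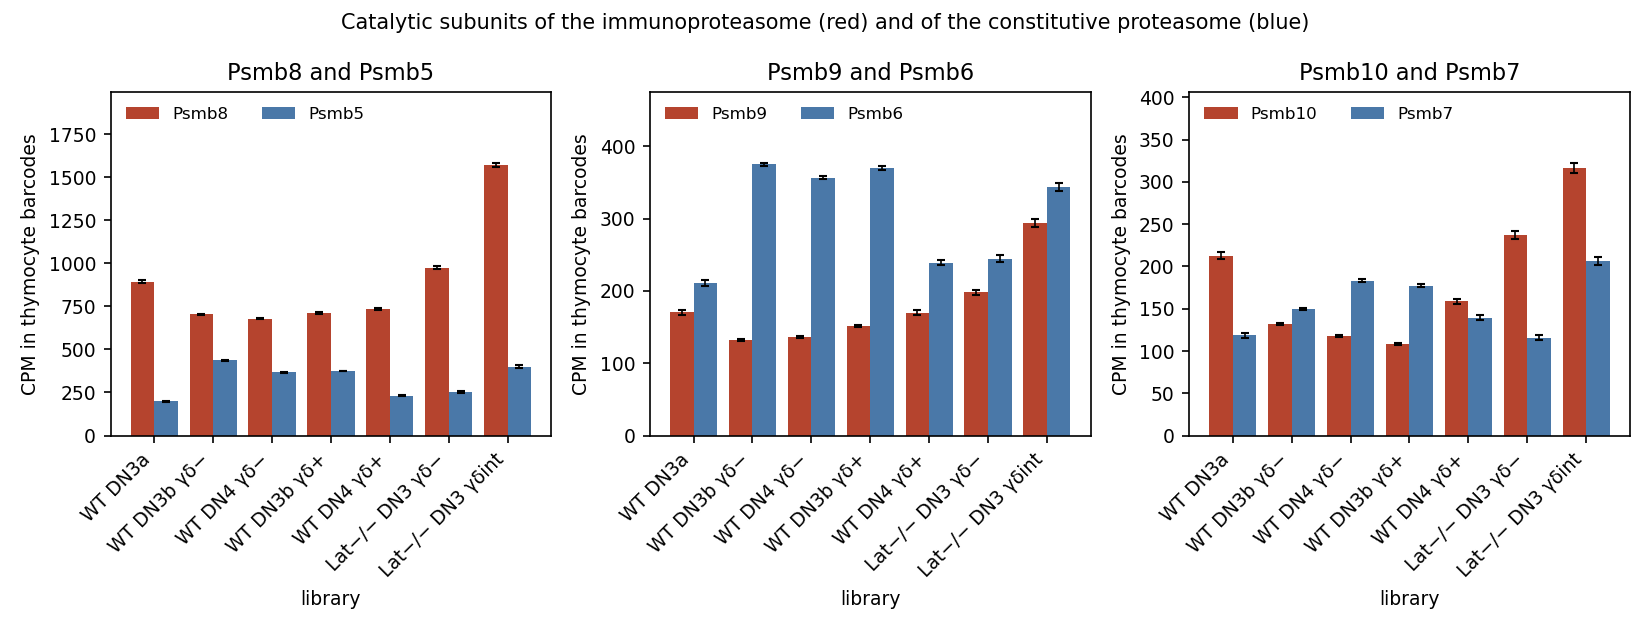
Bars give CPM in thymocyte barcodes of the 7 libraries for each immunoproteasome subunit (red) and its constitutive partner (blue), with 95% Poisson counting intervals. Psmb10 exceeds Psmb7 in WT DN3a, WT DN4 γδ+ and both Lat-/- libraries and is below it in the WT DN3b libraries and WT DN4 γδ−.

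Within each pair the immunoproteasome share was lower in each of the other WT libraries than in WT DN3a. Psmb8 made up 81.9, 61.7, 64.9, 65.5, 76.0, 79.4 and 79.7% of the UMIs of Psmb8 and Psmb5. Psmb9 made up 44.7, 26.0, 27.6, 29.1, 41.6, 44.7 and 46.0% of the UMIs of Psmb9 and Psmb6. For Psmb10 with Psmb7 the shares were 64.2, 46.8, 39.2, 38.0, 53.2, 67.2 and 60.6%. In every pair the 3 lowest shares were those of WT DN3b γδ−, WT DN4 γδ− and WT DN3b γδ+, with WT DN4 γδ+ between these and WT DN3a. As a log2 ratio of the summed immunoproteasome to the summed constitutive catalytic UMIs, the change from WT DN3a was -1.26 (-1.29 to -1.24) for WT DN3b γδ− and -1.23 (-1.25 to -1.21) for WT DN4 γδ−. On the γδ+ side it was -1.20 (-1.22 to -1.18) at DN3b and -0.47 (-0.50 to -0.45) at DN4. The Lat-/- libraries stood within 0.08 of WT DN3a on this scale, at -0.07 in DN3 γδ− and -0.08 in DN3 γδint, and there both lists were above WT DN3a as CPM. This ratio sets genes of 1 library against each other and does not depend on the total used for CPM. In the B cell barcodes described next the same ratio was -1.12 (-1.38 to -0.87) for WT DN3b γδ−, -0.95 (-1.21 to -0.69) for WT DN4 γδ− and -0.88 (-1.15 to -0.60) for WT DN3b γδ+, and subtracting it left -0.14, -0.28 and -0.32. With the barcodes that also passed the thymocyte rule left out, the B cell value for WT DN4 γδ− was -0.80 (-1.08 to -0.51), and subtracting it left -0.43. It was -0.14 (-0.44 to 0.15) for WT DN4 γδ+, -0.48 (-0.76 to -0.20) for Lat-/- DN3 γδ− and -0.22 (-0.50 to 0.07) for Lat-/- DN3 γδint, and subtracting it left -0.33, 0.41 and 0.14.

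B cells had been added to every library, and the same genes were read in them. Barcodes with at least 10 UMIs of a B cell marker list and at least 2 times as many of these as of the T cell list numbered 165 to 359 per library. In WT DN4 γδ− 76 of these 272 also passed the thymocyte rule, against 0 to 20 elsewhere, and the thymic epithelial marker sum of its B cell barcodes was 930 CPM, against 14.3 to 186 CPM in the other libraries. With such barcodes left out in every library it was 62.3 CPM there. Over all B cell barcodes, those that also passed the thymocyte rule included, the constitutive sum was 3661, 5763, 5563, 5990, 4099.8, 4009 and 5782 CPM. It was thus higher in WT DN3b, WT DN4 γδ− and Lat-/- DN3 γδint than in WT DN3a, as in thymocytes. The log2 ratio to WT DN3a in B cell barcodes was 0.65 (0.59 to 0.72) in WT DN3b γδ− and 0.66 (0.58 to 0.74) in Lat-/- DN3 γδint, beside 0.59 and 0.78 for the same sum in thymocyte barcodes. Sum beside sum, the thymocyte and B cell ratios were 0.63 and 0.60 in WT DN4 γδ−, and 0.74 and 0.71 in WT DN3b γδ+. They were 0.21 and 0.16 in WT DN4 γδ+, and 0.17 and 0.13 in Lat-/- DN3 γδ−. The B cell ratio of the sum was also subtracted from the thymocyte median over the subunits, which is an unlike measure. That left -0.062, 0.060, 0.10, 0.048, 0.058 and 0.26 in the 6 libraries after WT DN3a. The constitutive difference of the WT libraries from WT DN3a was thus of like size in the B cell barcodes. These B cell barcodes also held T cell transcripts, with a T cell marker sum of 1288, 1713, 1012, 1695, 1123, 1889.8 and 1922 CPM, or 14.4, 46.7, 29.1, 41.9, 20.6, 15.6 and 18.98% of the sum in thymocyte barcodes.

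The immunoproteasome sum in B cell barcodes was 937, 929, 900.2, 959, 967, 915 and 1598 CPM, with intervals that overlap in the first 6 libraries. The lower thymocyte level in the WT libraries other than DN3a was not seen in B cell barcodes, whose log2 ratio to WT DN3a was -0.01 (-0.15 to 0.13) in WT DN3b γδ− against -0.40 in thymocyte barcodes. The higher level in Lat-/- DN3 γδint was seen in both, at 0.77 (0.62 to 0.92) in B cell barcodes and 0.77 (0.76 to 0.79) in thymocyte barcodes. The part of T cell transcripts, and that of library composition, in these B cell values was not tested.

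**Figure D3:**
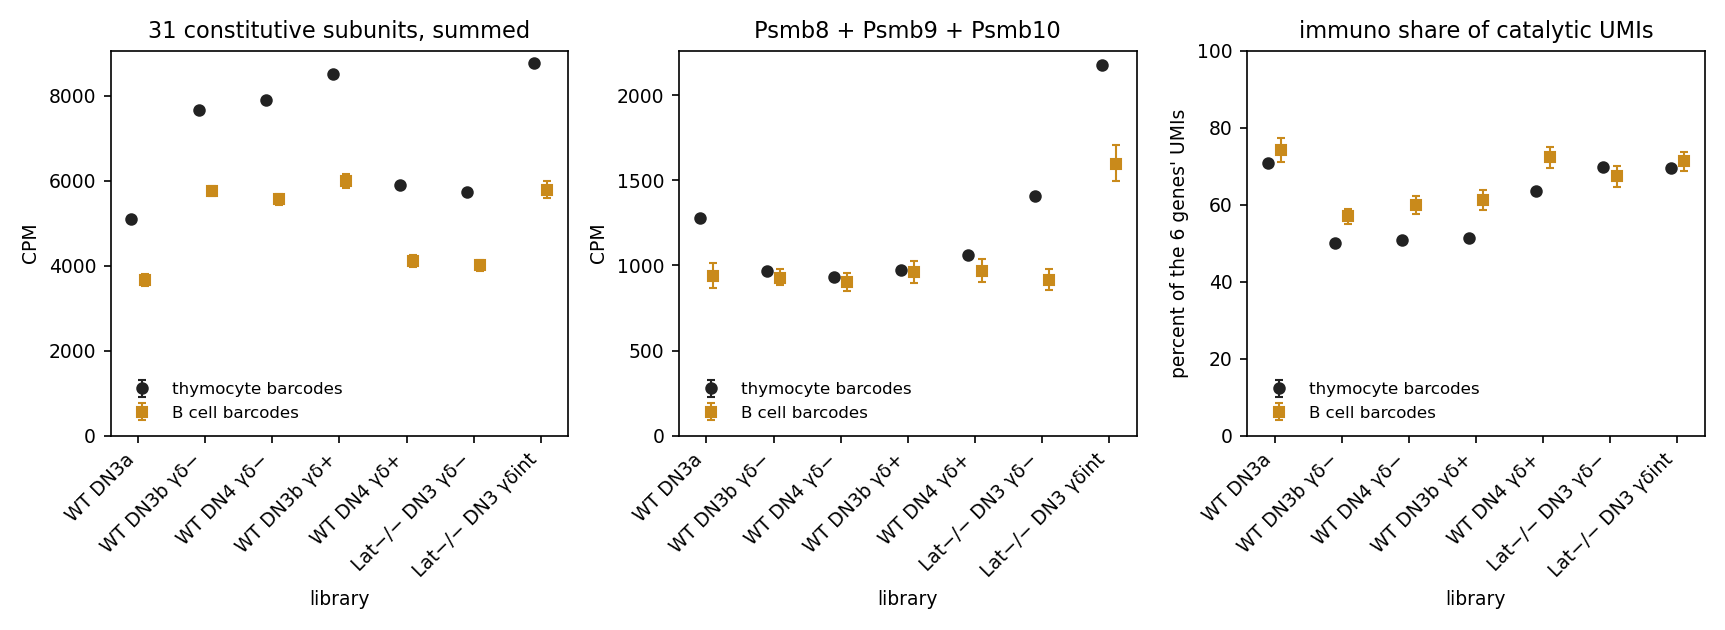
Points give, for thymocyte barcodes (black circles) and B cell barcodes (ochre squares) of each library, the summed CPM of the 31 constitutive subunits, that of Psmb8, Psmb9 and Psmb10, and the immunoproteasome percentage of the 6 catalytic genes' UMIs, with 95% counting intervals. The constitutive sums of both kinds of barcode are lowest in WT DN3a, WT DN4 γδ+ and Lat-/- DN3 γδ−, and the immunoproteasome sum of B cell barcodes stands out at 1598 CPM in Lat-/- DN3 γδint.

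In WT DN3b γδ−, 30 of the 31 constitutive subunits were above WT DN3a, with a median log2 ratio of 0.59 against -0.06 for all 7579 features with a mean of at least 10 CPM. Of those features 47.3% were above WT DN3a. Of the 46 members, 19 were at least 1.5-fold higher and 2, Psmb10 and Psme1, at least 1.5-fold lower, where 21.1% and 26.8% of all features were. The most changed were subunits of the 19S cap. Psmc1, an ATPase of the base that pulls substrates into the core, stood at 47.9, 143, 121, 119.6, 80.7, 77.1 and 114 CPM, and its log2 ratio of 1.58 (1.52 to 1.64) in WT DN3b γδ− was the highest of any member in any comparison. Psmd13, of the lid, stood at 74.2, 206, 157, 196, 125, 107 and 206 CPM, with a ratio of 1.48 (1.43 to 1.52). Psmd1, the large scaffold of the base, stood at 50.6, 131, 117, 129.6, 64.4, 80.2 and 102 CPM, with a ratio of 1.37 (1.31 to 1.43). The lowest constitutive subunit was Psmb1, a non-catalytic member of the beta ring, at -0.08 (-0.10 to -0.06). The lowest of the 46 members were Psmb10 (-0.69), Psme1 (-0.63) and the cap chaperone Psmd10 (-0.38).

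Psmb1 varied less than its neighbours, at 391, 370.0, 402, 389, 437, 412 and 486 CPM. In the same ring Psmb2 ranged from 198 to 376 CPM and Psmb3 from 259.9 to 427 CPM. By role, the median log2 ratio in WT DN3b γδ− was 0.39 for the alpha ring, 0.35 for the non-catalytic beta ring, 0.68 for the base ATPases, 0.86 for the base non-ATPases and 0.71 for the lid. In WT DN3b γδ− the alpha ring, which gates the core, was led in ratio by Psma7 (0.79), and Psma5 (0.02) was its lowest. Psma7 stood at 329.6, 569, 678, 748, 429, 310.2 and 469 CPM, and Psma5 at 198, 201, 243, 242, 175, 197 and 347 CPM. Over WT DN3a Psma7 was instead the lowest alpha subunit in Lat-/- DN3 γδ− (-0.09) and Lat-/- DN3 γδint (0.51).

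WT DN4 γδ− stood close to WT DN3b γδ−. All 31 constitutive subunits and 41.2% of all features were above WT DN3a, with medians of 0.66 and -0.17. Of the 46 members 22 were at least 1.5-fold higher and 2 at least 1.5-fold lower, beside 16.9% and 30.6% of all features. Psmc1 (1.33), Psmd1 (1.20) and Psmd13 (1.08) were again highest, and Psmb10 (-0.85), Psme1 (-0.67) and Psmb8 (-0.40) lowest.

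In WT DN3b γδ+, 30 of 31 constitutive subunits and 47.6% of all features were above WT DN3a, with medians of 0.81 and -0.05. Here 25 of 46 members were at least 1.5-fold higher and 1, Psmb10, at least 1.5-fold lower, beside 20.8% and 24.5% of all features. All 6 base ATPases passed that fold, with ratios of 0.61 (Psmc5) to 1.32 (Psmc1). Psmd13 (1.40) and Psmd1 (1.36) were the highest members, and Psmb10 (-0.97), Psme1 (-0.51) and Psmb8 (-0.33) the lowest.

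WT DN4 γδ+ stood close to WT DN3a. Of the constitutive subunits 26 of 31 were above it, beside 49.3% of all features, with medians of 0.21 and -0.01. Only 4 of 46 members were at least 1.5-fold higher and 1 at least 1.5-fold lower, beside 15% and 14.5% of all features, so the members' share was below the background in both directions. The 4 were Psmc1 (0.75), Psmd13 (0.75), Psmd8 (0.66) and Psmc3 (0.59). The lowest were Psmg4 (-0.77), and Psmg2 (-0.50), both chaperones of core assembly, and the lid subunit Psmd3 (-0.43).

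The WT DN3b populations with and without a surface γδ TCR were compared directly. The constitutive sum was 1.11-fold higher in WT DN3b γδ+ than in WT DN3b γδ−, with 21 of 31 subunits above and 10 below and a median of 0.20 against -0.04 for all features. Of all features 46.7% were higher in γδ+. Of the 46 members 0 were at least 1.5-fold higher and 0 at least 1.5-fold lower, where 10.8% and 8.8% of all features were. All 7 alpha subunits were higher in γδ+, at 0.20 (Psma6) to 0.44 (Psma1), whereas the base non-ATPases Psmd2 (-0.13) and Psmd4 (-0.29) were lower and Psmd1 was at -0.01 (-0.04 to 0.01). The highest members were the ATPase Psmc2 (0.58), the cap chaperone Psmd5 (0.54) and Psmb2 (0.49), and the lowest were the inhibitor Psmf1 (-0.48), Psmg4 (-0.43) and Psmg3 (-0.38). The immunoproteasome sum differed by 0.01 (-0.00 to 0.01), but its members did not move alike, with Psmb9 at 0.20 (0.18 to 0.22), Psmb8 at 0.01 and Psmb10 at -0.28 (-0.30 to -0.25).

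Lat-/- DN3 γδ− cells had nearly the proteasome profile of WT DN3a. The constitutive median was 0.19, close to the median of 0.22 of all features, and with TMM scaling, which sets the bulk of genes level between libraries and lowers every log2 ratio of this comparison by 0.21, it became -0.02. The direction of the list was thus not fixed. Of the 46 members 4 were at least 1.5-fold higher and 0 lower, beside 15.7% and 2.55% of all features, and under TMM scaling 0 were at least 1.5-fold higher, beside 6.5% of all features. The 4 were Psmd3 (0.72), Psmc1 (0.69), Psmd1 (0.66) and Psmd2 (0.64). The lowest members were Psmg4 (-0.45), the activator Psme4 (-0.22) and Psma7 (-0.09). The immunoproteasome sum was at 0.14 (0.13 to 0.16) and at -0.07 with TMM scaling.

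Lat-/- DN3 γδint cells had the highest CPM of both lists, although with TMM scaling their constitutive median of 0.42 was below those of WT DN3b γδ− (0.61), WT DN4 γδ− (0.79) and WT DN3b γδ+ (0.84). Relative to WT DN3a, 30 of 31 constitutive subunits and 79.8% of all features were higher, with medians of 0.92 and 0.47. The immunoproteasome sum was at 0.77. Of the 46 members 34 were at least 1.5-fold higher and 1 at least 1.5-fold lower, beside 41.7% and 7.22% of all features. TMM scaling lowers each log2 ratio of this comparison by 0.50, to 0.42 for the constitutive median and 0.27 for the immunoproteasome sum, and then 8 of 46 members were at least 1.5-fold higher, beside 10.9% of all features. The highest were Psmd13 at 1.48 (1.42 to 1.53), Psmc4 at 1.38 (1.34 to 1.43) and Psmc1 at 1.25 (1.17 to 1.32), which under TMM scaling were at 0.98, 0.89 and 0.75. The lowest were Psmg4 (-1.87), Psmb3 (-0.00) and Psme4 (0.04).

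Against Lat-/- DN3 γδ−, the library of the same genotype, Lat-/- DN3 γδint had 30 of 31 constitutive subunits higher, with a median of 0.65 against 0.21 for all features, or 0.36 with TMM scaling. Of all features 70.1% were higher. In that comparison 22 of 46 members were at least 1.5-fold higher and 1 at least 1.5-fold lower, beside 18.6% and 6.81% of all features, and with TMM scaling 8 were at least 1.5-fold higher, beside 7.51%. Of the 6 base ATPases 5 passed the fold, led by Psmc2 at 1.003 (0.95 to 1.06) and Psmc6 at 0.99, as did 7 of the 8 lid subunits, and with TMM scaling 4 and 2 did. The highest member was Psmg1, which pairs with Psmg2 to start the assembly of the alpha ring, at 48.0, 79.9, 98.1, 92.1, 60.7, 47.7 and 97.8 CPM and a ratio of 1.03 (0.96 to 1.11). The lowest were Psmg4 (-1.42), Psme2 (-0.40) and Psmb3 (-0.19). Psmb8 (0.69), Psmb9 (0.57) and Psmb10 (0.42) were all higher, and all 3 also with TMM scaling (0.40, 0.28 and 0.13). Their sum was at 0.63 in thymocyte barcodes and at 0.80 (0.67 to 0.94) in the B cell barcodes of the same libraries. The constitutive sum was at 0.61 in thymocyte barcodes and at 0.53 (0.46 to 0.60) in B cell barcodes.

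The Lat-/- DN3 γδint library also differed in its content of short transcripts. Ribosomal-protein genes took 15.9% of its thymocyte UMIs and 17.1% of its B cell UMIs, against 25.7 to 31.4% and 27.7 to 32.4% in the other libraries. Among features whose longest annotated transcript was under 700 bases the median log2 ratio to Lat-/- DN3 γδ− was -1.39 (107 features without ribosomal-protein and mitochondrial genes), and at 700 to 1000 bases it was -0.36, at 1000 to 1500 bases 0.41, at 1500 to 2500 bases 0.34 and above that 0.19. Psmg4, with a longest transcript of 555 bases, stood at 121, 142, 149, 106, 70.9, 88.4 and 33.1 CPM and at -1.42 in this comparison, and in B cell barcodes at -1.42 as well. Of the 4 members of 700 to 1000 bases Psme2 was at -0.40, but Psmb2 (0.15), Psmb6 (0.49) and Psmb5 (0.67) were higher, with a median over the 4 of 0.32. The longest annotated transcripts of the constitutive subunits had a median of 1819 bases, and which of their transcripts were expressed was not examined. By this length the members of 1000 to 1500 bases had a median log2 ratio of 0.80 and those of 1500 to 2500 bases of 0.67. The part of transcript length in the Lat-/- DN3 γδint values was not tested.

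**Figure D4:**
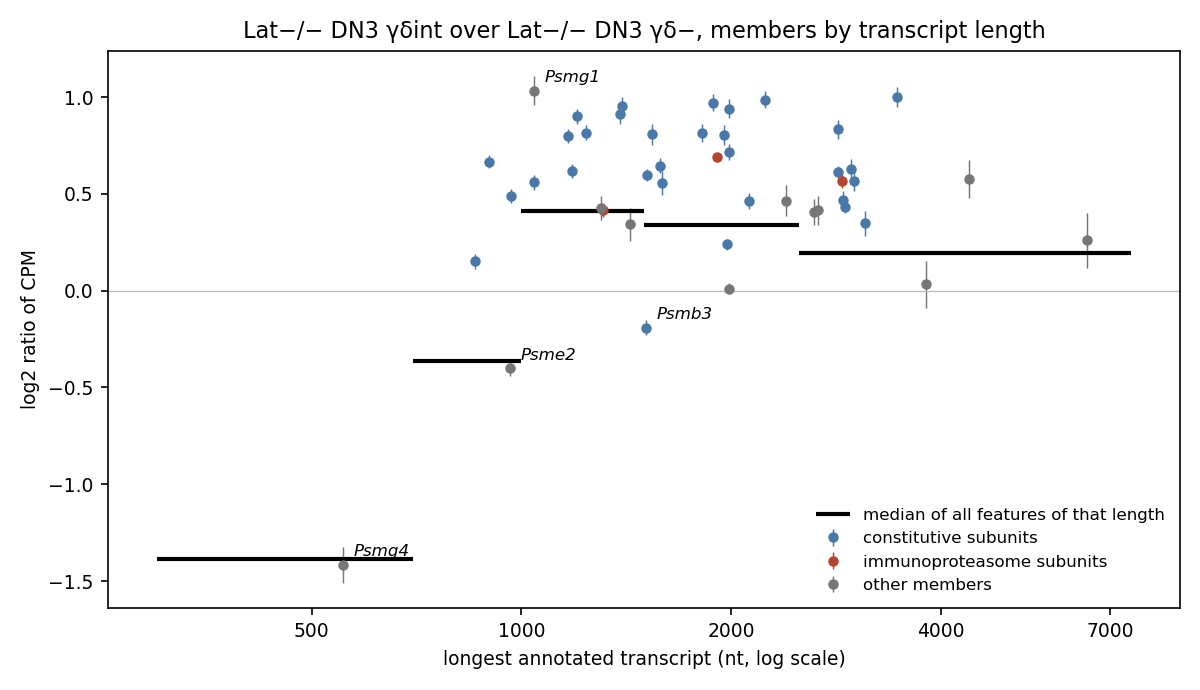
Each point is a member, placed by the length of its longest annotated transcript (log axis) and by its log2 ratio of CPM between Lat-/- DN3 γδint and Lat-/- DN3 γδ−, with a 95% counting interval. Black lines give the median of all features of that length, and Psmg4 at -1.42 and Psme2 at -0.40 lie near the lines of the 2 shortest classes, while Psmb2, Psmb5 and Psmb6 lie above theirs.

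Activators that dock on the core in place of the 19S cap did not move as a group. Psme1 and Psme2 encode the alpha and beta chains of PA28, which interferon induces together with the immunoproteasome. Psme1 stood at 431, 279, 271, 302, 348, 459.6 and 463 CPM, following the immunoproteasome genes in the WT libraries. Psme2 did not follow it, at 187, 188, 153, 210.1, 165, 277 and 210.1 CPM. The nuclear PA28 gamma gene Psme3 was above WT DN3a in each library but WT DN4 γδ+, at 45.7, 76.6, 69.1, 72.5, 39.5, 56.0 and 74.7 CPM, and Psme4, which encodes PA200, was low and level at 17.1 to 21.7 CPM. Psmf1, the inhibitor PI31, ranged from 17.7 to 28.3 CPM.

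The chaperones of cap assembly Psmd5, Psmd9 and Psmd10 stood at 25.4 to 46.6, 58.6 to 93.3 and 34.9 to 58.1 CPM, and none passed 1.5-fold against WT DN3a in any other WT library. In Lat-/- DN3 γδint Psmd5 (0.65) and Psmd9 (0.67) did as CPM, and with TMM scaling they were at 0.15 and 0.17. The core chaperones Psmg1, Psmg2 and Psmg3 were higher in WT DN3b γδ− than in WT DN3a, at 0.74, 0.53 and 0.52. Among DN4 γδ+ cells Psmg2 (-0.50), Psmg3 (-0.31) and Psmg4 (-0.77) were all lower, and Psmg1 was at 0.34.

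The remaining 3 members were near the limit of detection. Psmb11, the subunit of cortical thymic epithelium, had 6 to 27 UMIs per library (0.0384 to 0.219 CPM), in 6 to 13 barcodes. Psma8, the alpha subunit of testis, had 24 to 440 UMIs (0.344 to 2.46 CPM). Psme2b had 134 to 910 UMIs (1.62 to 5.86 CPM), and as its sequence is a near copy of that of Psme2, how reads were divided between them is uncertain.

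Barcodes were also split by their cell-cycle transcripts. They were thinned to 4000 UMIs, and those with at most 1 UMI of 16 cell-cycle genes were called low and those with at least 5 high. The high class held 75 of the 6462 barcodes deep enough in WT DN3a, 13894 of 17673 in WT DN3b γδ−, 9031 of 11815 in WT DN4 γδ−, 7215 of 10851 in WT DN3b γδ+, 1046 of 6934 in WT DN4 γδ+, 249 of 6125 in Lat-/- DN3 γδ− and 914 of 4537 in Lat-/- DN3 γδint. The low class held 6122, 943, 608, 1282, 5049, 5558 and 2789 of these barcodes. Within every library the constitutive sum was higher in the high class. It was 6775, 7695, 7984, 8585, 7367, 7117 and 10049.5 CPM in the high class and 5013, 7056, 6924, 8198, 5193, 5571 and 8025 CPM in the low class. The log2 ratio of high to low was 0.43 (0.40 to 0.47) in WT DN3a and 0.50 (0.49 to 0.51) in WT DN4 γδ+, and no more than 0.07 (0.06 to 0.07) in WT DN3b γδ+. Psmb1 was the lowest constitutive subunit in this ratio in each of the 7 libraries, at -0.06 to -0.18.

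Low-class barcodes of the WT DN3b libraries and WT DN4 γδ− still stood above those of WT DN3a, with a constitutive median log2 ratio of 0.52 and 0.47 in the γδ− libraries, DN3b first, and of 0.69 in WT DN3b γδ+. For WT DN4 γδ+ it was 0.057. Among high-class barcodes the medians were 0.21, 0.25, 0.33 and 0.16 in the same 4 libraries, against the 75 barcodes of WT DN3a. The immunoproteasome sum was 1248, 956, 924, 967, 1116, 1464 and 2129 CPM in the high class. In the low class it was 1283, 1049, 996, 1002, 1034, 1409 and 2212 CPM. Its log2 ratio of high to low ran from -0.13 (-0.16 to -0.11) in WT DN3b γδ− to 0.11 (0.09 to 0.13) in WT DN4 γδ+. The constitutive ratio in WT DN3b γδ− was 0.12 (0.11 to 0.14). Of B cell barcodes deep enough 28 of 75 in WT DN3b γδ− were called high, against 0 of 55 in WT DN3a.

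**Figure D5:**
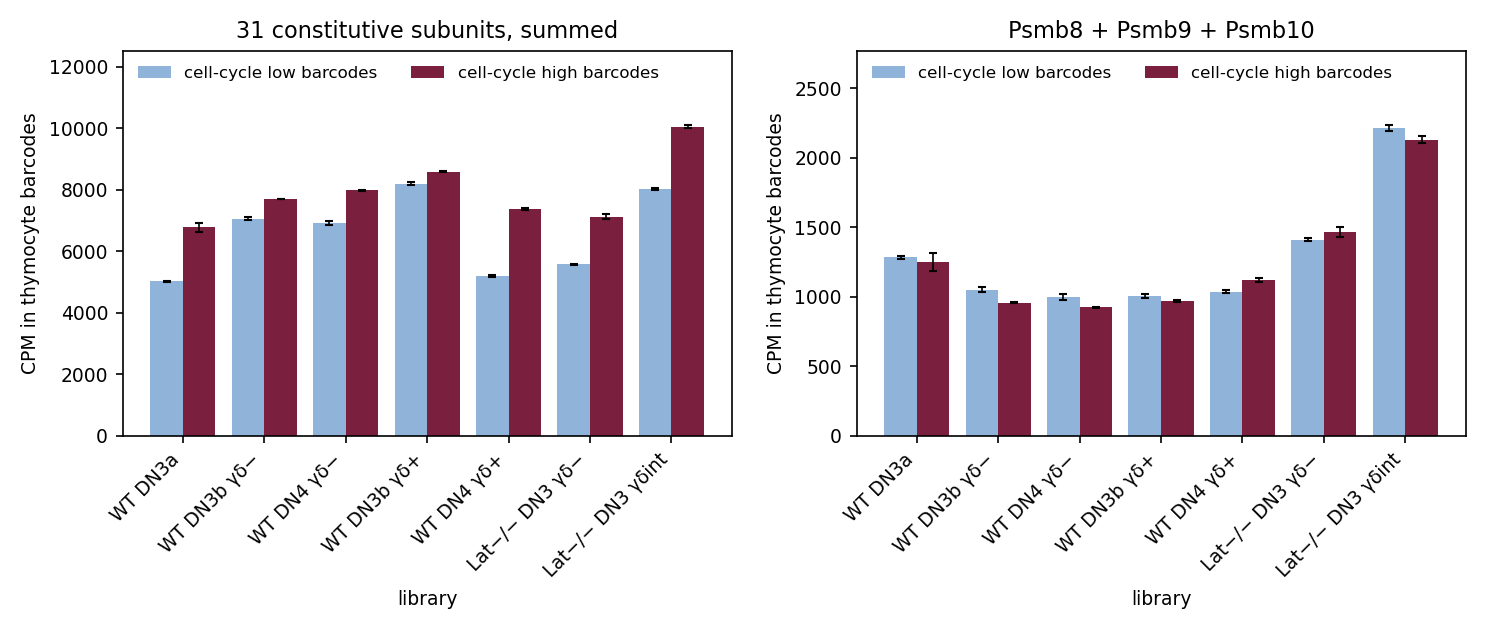
Bars give the summed CPM of the 31 constitutive subunits and of Psmb8, Psmb9 and Psmb10 in thymocyte barcodes low (light blue) and high (dark red) in cell-cycle transcripts, with 95% Poisson counting intervals. The dark bar is the taller one in all 7 libraries on the left, and on the right the taller bar is not the same one in each library.

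Counts per barcode were also compared at equal depth. At 4000 UMIs the median thymocyte barcode held 19, 30, 31, 33, 21, 22 and 33 constitutive UMIs and 5, 4, 4, 4, 4, 5 and 9 immunoproteasome UMIs. Psmb8 was found in 96.4, 93.9, 93.0, 93.4, 92.7, 97.4 and 99.8% of them, and in 81.8 to 94.3% of B cell barcodes of the same depth. Psmb9 was found in 40.7 to 66.5% of thymocyte barcodes and Psme4 in 6.09 to 8.64%. The share of barcodes without any immunoproteasome UMI was 0.867, 2.49, 2.62, 2.77, 2.51, 0.588 and 0.0441%.

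Other genes of the proteasome pathway were read from a list of 22, of which 21 were in the tables and all 21 had a mean of at least 10 CPM. Relative to WT DN3a, 4, 2, 5 and 0 were at least 1.5-fold higher in WT DN3b γδ−, WT DN4 γδ−, WT DN3b γδ+ and WT DN4 γδ+, and 1, 2, 0 and 1 lower, with medians of 0.26, 0.10, 0.24 and 0.08. Over all features the shares at least 1.5-fold higher were 21.1, 16.9, 20.8 and 15%, and at least 1.5-fold lower 26.8, 30.6, 24.5 and 14.5%, so the counts higher were near or below the background and those lower were below it. The cap-bound deubiquitinases Uchl5 (1.20) and Usp14 (1.07) and the ubiquitin receptors Adrm1 (0.71) and Rad23b (0.73) were the 4 in WT DN3b γδ−, and the polyubiquitin gene Ubb (-0.69) was the 1 lower. Pomp, the maturation factor of the core, was at 0.26 there and at 0.998 in WT DN3b γδ+. In Lat-/- DN3 γδ− 4 were at least 1.5-fold higher, beside 15.7% of all features, and 1 with TMM scaling, beside 6.5%. Akirin2 (-1.20) was the 1 lower as CPM, beside 2.55%. In Lat-/- DN3 γδint 12 were higher, beside 41.7% of all features, and 1 with TMM scaling, beside 10.9%, and 1 was lower as CPM, beside 7.22%. The lower one was Sem1, the smallest lid subunit, at -2.09. Nfe2l1, which drives subunit genes when proteasome activity is short, was at -0.17 and -0.77 in the WT γδ− libraries, DN3b first.

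A list of 10 interferon and class I presentation genes, 9 of them with a mean of at least 10 CPM, was lower in 3 WT libraries by more than the immunoproteasome genes. In WT DN3b γδ−, WT DN4 γδ− and WT DN3b γδ+ 8, 9 and 8 of the 9 were at least 1.5-fold lower than WT DN3a, with medians of -1.42, -1.60 and -1.52, where 26.8, 30.6 and 24.5% of all features were. Tap1, the neighbour of Psmb9, was at -0.35, -0.98 and -0.45, beside -0.37, -0.33 and -0.17 for Psmb9. In Lat-/- DN3 γδ− and DN3 γδint Tap1 was at 1.33 and 1.61, beside 0.21 and 0.78 for Psmb9. The list had a median of -0.08 in WT DN4 γδ+, against -0.27 for the immunoproteasome sum, and of 0.56 and 0.50 in the Lat-/- libraries, beside 0.22 and 0.47 over all features. With TMM scaling these medians were 0.35 and 0.0065, beside 0.015 and -0.022, and 2 and 1 of the 9 were at least 1.5-fold higher, beside 6.5% and 10.9% of all features, instead of 4 and 2 as CPM, beside 15.7% and 41.7%.

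Markers of other cell types were also summed in the thymocyte barcodes. The B cell list stood at 116 to 289 CPM and the myeloid list at 98.6 to 189 CPM. The thymic epithelial list stood at 37.9 to 225 CPM, most of it Epcam, Ccl25 and Cldn4, with the defining gene Foxn1 at 0 in 4 libraries and at most 0.0781 CPM in the others. The list sum and Epcam (22.0 CPM) were lowest in WT DN4 γδ−, but Foxn1, Krt5 and Krt8 were highest there. Krt5 stood at 2.35 CPM and Krt8 at 2.04 CPM in that library, against at most 0.577 and 1.04 CPM elsewhere. Prss16 was highest in WT DN4 γδ+ (0.644 CPM). A plasmacytoid list, at 486 to 2660 CPM and highest in WT DN3a, was mostly Ly6d or, in WT DN4 γδ+, Ccr9 (894 CPM), and its defining gene Siglech was at 0 to 0.0793 CPM. The NK list, at 221 to 2446 CPM, was nearly all Gzma, with Ncr1 at 0 in all libraries. The erythroid list stood at 0.167 to 169.8 CPM, highest in WT DN4 γδ−.

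The features most like each list were ranked by the root mean square difference of their log2 ratios to WT DN3a over the 6 other libraries. Nearest to the constitutive sum were Cdc123 (0.05), Casp8ap2 (0.06), Cep57 (0.06), Mis12 (0.07), Rab5if (0.07), Sass6 (0.08), Ndufa10 (0.08), Ube2k (0.09) and Cenpc1 (0.10), where the median feature was 0.75 away. Nearest to the immunoproteasome sum were Ankrd10 (0.11), Caml (0.11), Erf (0.11), Cdk7 (0.11), Lcorl (0.12), Rdh11 (0.12), Rabepk (0.12), Slc25a51 (0.12), Ddb2 (0.12) and Gatd3a (0.12), where the median feature was 0.61 away. With 6 points these rankings are descriptions.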

How the data were processed

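The values are gene by barcode UMI counts that the authors deposited for each of the 7 libraries, made with Cell Ranger (5.0.1 in the submitters' processing notes, 4.0.0 in the file headers) on mouse build mm10. Of 90016 barcodes, 79076 had 200 or more detected genes and no more than 15% of UMIs from mitochondrial genes, and 71081 of these held at most 1 UMI of Cd79a, Cd79b and Ms4a1. No doublet caller was run. UMIs were summed over barcodes and divided by their total to give CPM. Log2 ratios between libraries carry 95% intervals conditional on the counts, and shares carry exact binomial ones. Changes in the immunoproteasome to constitutive catalytic ratio carry 95% intervals from a normal approximation. Features with a mean of at least 10 CPM (7579) formed the background, and a fold of 1.5 was the limit used in counts. TMM factors came from edgeR 4.0.16 in R 4.3.3, and the rest was computed in Python 3.11.15 with numpy 2.4.6, scipy 1.17.1, pandas 2.3.3 and matplotlib 3.10.9, after tests on simulated counts. The 6 catalytic genes, Psmb11, Psme1 to Psme4, Psmf1, members under the filter and, in each comparison, the 3 highest and 3 lowest members past it were named, and any further member named was chosen after its values were seen. The members, gene lists and alternatives were chosen with earlier results of these data known. Promoter sequences came from RefSeq, gene positions and transcript lengths from GENCODE vM21. Each group was 1 library, so no test was made. Of the 10 features ranked nearest to the constitutive sum, 1 is not reported here.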

Additional observations from a re-analysis of the deposited data

Results flagged for a closer look

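Some members had ratios of opposite direction in a pair of contrasts of like form between different populations. Each library is 1 sample and the difference was not tested. The members listed had a log2 ratio of at least 0.25 in size in both contrasts. Between cells with more and with less surface γδ TCR at DN3, 15 of 46 members were lower in WT DN3b γδ+ than in WT DN3b γδ− but higher in Lat-/- DN3 γδint than in Lat-/- DN3 γδ−, and 6 of them passed that size. Over all 7579 features the shares were 37.9% and 13.1%, beside 32.6% and 13.04% of the members, which is near the background. The reverse pattern held 2 of 46 members (4.35%), beside 14.5% of all features, and at that size 0 members, beside 4.66%. The log2 ratios were -0.28 and 0.42 for Psmb10 (a difference of -0.69), -0.26 and 0.56 for Psmc1 (-0.82), and -0.29 and 0.47 for Psmd4 (-0.76). They were -0.27 and 0.47 for Psmd3 (-0.74), -0.29 and 0.65 for Psmd7 (-0.93), and -0.38 and 0.46 for Psmg3 (-0.84). The gates were γδ+ in WT and γδint in Lat-/- mice, and the γδ− libraries they were set against also differed. WT DN3b γδ− had 13894 of 17673 deep barcodes in the high cell-cycle class, and Lat-/- DN3 γδ− had 249 of 6125. The part of these differences, and that of transcript length in the Lat-/- values, was not tested. With TMM scaling the Lat-/- ratios were lower by 0.29 each and all 6 kept a positive sign, but 1 of the 6, Psmd7 (-0.28 and 0.36), still had a size of at least 0.25 in both contrasts.

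From DN3b to DN4, 21 of 46 members were higher in the γδ− branch and lower in the γδ+ branch, among them all 7 alpha subunits of the core, and 9 of the 21 passed that size. These are 45.7% and 19.6% of the members, beside 15.4% and 3.35% of all features. The reverse pattern held 4 of 46 members (8.70%), beside 35.4% of all features, and at that size 0 members, beside 12.7%. The ratios of DN4 to DN3b were 0.36 and -0.36 for Psma1 (a difference of 0.72), 0.25 and -0.58 for Psma4 (0.83), 0.27 and -0.47 for Psma5 (0.74), 0.29 and -0.70 for Psma6 (0.99), and 0.25 and -0.80 for Psma7 (1.06). The others were 0.29 and -0.35 for Psmb7 (0.64), 0.32 and -0.35 for Psmc6 (0.67), 0.38 and -0.30 for Psmd5 (0.69), and 0.29 and -0.60 for Psmg1 (0.90). The constitutive sum differed by 0.044 in the γδ− branch (0.14 with TMM scaling) and -0.53 in the γδ+ branch, and the immunoproteasome sum by -0.05 (0.05 with TMM scaling) and 0.13. Over all B cell barcodes the constitutive sum was 5763 and 5563 CPM in WT DN3b γδ− and WT DN4 γδ−. It was 5990 and 4099.8 CPM in WT DN3b γδ+ and WT DN4 γδ+. The high cell-cycle class held 13894 of 17673 and 9031 of 11815 deep barcodes in the γδ− libraries, DN3b first. In the γδ+ libraries it held 7215 of 10851 and 1046 of 6934. The part of cell cycle and of library composition in these ratios was not tested.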

How the results depend on the processing

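Unless named, values stand in the order WT DN3b γδ−, WT DN4 γδ−, WT DN3b γδ+, WT DN4 γδ+, Lat-/- DN3 γδ− and Lat-/- DN3 γδint over WT DN3a, then WT DN3b γδ+ over γδ− and Lat-/- γδint over γδ−, each as a log2 value. With ribosomal-protein and mitochondrial genes left out of the total, the constitutive median was 0.50, 0.61, 0.64, 0.10, 0.057, 0.58, 0.12 and 0.44. With the B cell ratio of the constitutive sum, an unlike measure, subtracted from the median it was -0.062, 0.060, 0.10, 0.048, 0.058, 0.26, 0.14 and 0.12, reversed in the first. In barcodes low in cell-cycle transcripts (an alternative chosen after seeing the data, like the high class) it was 0.52, 0.47, 0.69, 0.057, 0.16, 0.82, 0.25 and 0.58, and in the high class 0.21, 0.25, 0.33, 0.16, 0.074 and 0.67 for the first 6 and 0.54 for the last. Without the quality filter it was 0.63, 0.69 and 0.84 in the first 3, and without the 8% of barcodes with most UMIs 0.66, 0.73, 0.85 and 0.15 in the first 4. With each barcode weighted equally it was 0.63 and 0.69 in the first and second, 0.13 in WT DN4 γδ+, 0.86 in Lat-/- DN3 γδint, and 0.24 and 0.60 in the last pair. With TMM scaling it was 0.79 and 0.84 in WT DN4 γδ− and WT DN3b γδ+, -0.017 (reversed) and 0.42 in the Lat-/- libraries over WT DN3a, and 0.36 in the last. With T cell markers required it was 0.18 in WT DN4 γδ+.

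The immunoproteasome to constitutive catalytic ratio, with T cell markers required, was -1.23, -1.20, -1.17, -0.44, -0.028 and -0.049 in the first 6. Without the 8% of barcodes with most UMIs it was -1.33, -1.30, -1.26 and -0.40 in the first 4, and 0.077 and 0.030 in the last pair. With barcodes weighted equally it was -1.29, -1.26, -1.23 and -0.42 in the first 4, -0.017 in Lat-/- DN3 γδint and 0.055 in the last. With the B cell ratio subtracted it was -0.14, -0.28, -0.32, -0.33, 0.41, 0.14, -0.18 and -0.27, reversed in both Lat-/- libraries and in WT DN3b γδ+ over γδ−. With barcodes that also passed the thymocyte rule left out of the B cell barcodes (chosen after seeing the data) it was -0.14, -0.43, -0.34, -0.37, 0.40, 0.12, -0.20 and -0.27, reversed in the same 3. The constitutive median less the B cell ratio of the constitutive sum was then -0.068 (reversed), 0.099, 0.087, 0.046, 0.043, 0.26, 0.13 and 0.13. In the low class the immunoproteasome to constitutive catalytic ratio was -1.02, -0.95, -1.08 and -0.31 in the first 4, 0.071 (reversed) in Lat-/- DN3 γδint, and -0.059 (reversed) and 0.12 in the last pair. In the high class it was -0.76, -0.73, -0.70, -0.28, 0.11 and 0.18 in the first 6, reversed in both Lat-/- libraries, and 0.068 in the last.

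At a fold limit of 2 the number of members higher was 5, 5, 6, 0, 0 and 15 in the first 6 comparisons and 2 in the last, and 0 were lower in each of the first 4. Of all features 10.1, 7.59, 10.1, 7.97, 2.77, 13.9 and, in the last, 5.01% were higher by that limit, and 14.3, 17.2, 13.2 and 6.82% lower in the first 4. Without the filter on low values, which adds only Psma8, Psmb11 and Psme2b, all near the limit of detection, 4, 5, 3 and 3 members were lower in the first 4 and 2 in the last. With TMM scaling 1 member was lower in WT DN4 γδ−, 1 in Lat-/- DN3 γδ− and 2 in the last. No share of all features stands beside these counts of lower members, so they are not set against the background. With TMM scaling 0, 8, 1 and 8 were higher in both Lat-/- libraries over WT DN3a and in the last pair, beside 6.5, 10.9, 11.1 and 7.51% of all features. Where values differ, the cause was not tested, beyond what the alternative itself leaves out.

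The planned cell-cycle list left 0 barcodes in the low class of 6 libraries and 5 in that of WT DN4 γδ+, while its high class held 4537 to 17671 barcodes, so the planned low class gave no value. No paired analysis was possible because each group was 1 library, and for the same reason no library was left out. The B cell values rest on 165 to 359 barcodes per library.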
